A study of Chlamydomonas reinhardtii with 9 samples.

Results

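Chromatin of the unicellular green alga Chlamydomonas reinhardtii (strain CC5325) was pulled down through an HA epitope tag and sequenced (ChIP-seq), and the 3 libraries of tagged PAF1 and the 3 of tagged SKIP each came with a list of peak intervals. The regions described here are stretches of chromosome where intervals of all 6 lists ran into each other and where at least 1 list contributed several intervals. They were chosen by pooling the intervals of the 6 lists, merging those that overlapped by at least 1 bp, and keeping merged regions on the 17 chromosomes with at least 1 interval from every list and 2 or more from at least 1 list. This gave 1671 extended regions, or 4.52% of the 36946 merged regions on the chromosomes. A further 1354 merged regions held exactly 1 interval from every list and are called focal regions below. The choice used the intervals of all 6 lists, so widths, interval counts and coverage of the extended regions are descriptions and carry no test.

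The labels name the tagged groups paf1 and skip and do not say whether the tagged lines also carried a mutation of the gene. Neither the promoter driving a tagged protein nor the number of clones behind a line is given in the sources used here. The extraction protocol speaks of mutants made by genome editing for the project. The 3 untagged wild-type libraries of the same strain in the series were not analysed here, so no value is set against cells without the tag. Whether the replicates are separate cultures is not labelled, and replicate 3 of each tagged group carries different label fields from replicates 1 and 2.

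PAF1 is a core subunit of the PAF1 complex, which accompanies RNA polymerase II while it elongates transcripts and is needed for several histone modifications laid down along transcribed genes. SKIP, an SNW-domain protein, is known from plants and animals for roles both in pre-mRNA splicing, as a part of the spliceosome, and in transcription. In flowering plants SKIP was found to work together with the PAF1 complex on flowering-time genes. Factors that travel with the polymerase can give broad signal over a gene body, while factors that bind at a fixed element give narrow peaks. The annotation of the files' own genome build was not used here, so no region is placed in a gene, and positions are 1-based coordinates of the deposited lists.

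Depth behind the lists is unknown, because they carry no read counts or scores, and nearly all intervals had the same width of 400 bp. The lists held 16252, 16928 and 17564 intervals on the chromosomes for PAF1-HA and 19631, 22225 and 24615 for SKIP-HA, so that each SKIP-HA list was longer than each PAF1-HA list. A longer list has more chances to place an interval in any stretch, and this difference moves with every SKIP-HA to PAF1-HA comparison below. Its part in them was not tested. The lists come from many cells together, so signal at several points of a region in the same cell and signal at different points in different cells cannot be told apart.

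Extended regions were between 417 and 4814 bp wide, with a median of 1243 bp and quartiles at 942.5 and 1673.5 bp. More than 1 kb was spanned by 1159 of them, or 69.4%, more than 2 kb by 253 and more than 4 kb by 7. Together they covered 2339 kb, which is 2.09% of the length spanned by peaks, taken from the first base of each chromosome to its last peak-covered position. Focal regions had a median width of 480 bp, and 29 of 1354 exceeded 1 kb. The plot of widths shows a compact focal class and a long tail of extended regions.

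**Figure D1:**
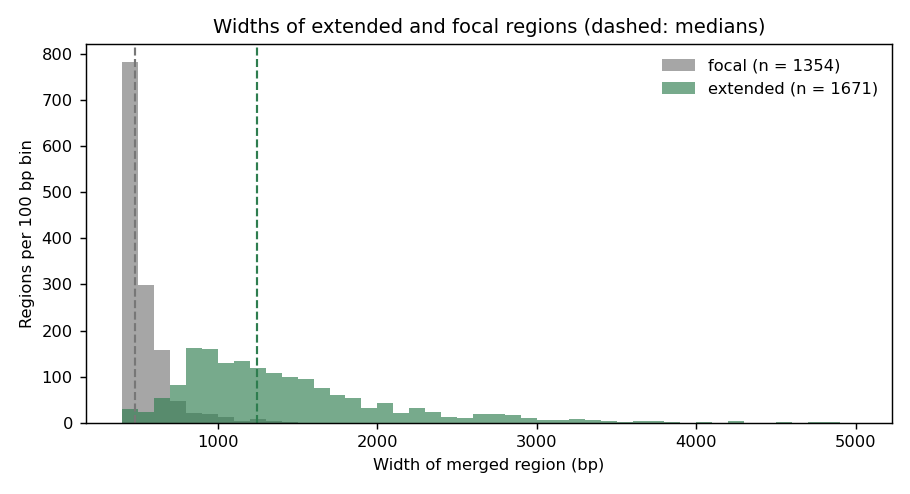
Histogram of region width (x axis, bp, bins of 100 bp) against the number of regions (y axis), for 1671 extended and 1354 focal regions, with dashed lines at the medians of 1243 and 480 bp. Focal regions crowd near the width of a single interval, and extended regions reach 4814 bp.

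Some extended regions met the rule only just. Exactly 7 intervals, that is 2 from 1 list and 1 from each of the others, were found in 349 of them, with a median width of 866 bp. On the other side of that limit stand the 1354 focal regions with 6 intervals. The number of lists that contributed 2 or more intervals was 1 in 368 regions, 2 in 339, 3 in 303, 4 in 295, 5 in 221 and 6 in 145. Width did not keep growing with that number. The median was 881 bp where 1 list was doubled, 1603 bp where 4 were and 1510 bp where all 6 were. The regions doubled in every list were thus not the broadest group by median width. The widest region of all, at 4814 bp, was nevertheless doubled in every list.

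Lists of both proteins were doubled in most regions. Each single list was doubled in 48.0% to 56.6% of regions, so at least 1 of 3 lists per protein is easily reached. The rule also used these counts, and no sharing between the proteins is read from them. In 1111 regions, or 66.5%, at least 1 PAF1-HA list and at least 1 SKIP-HA list had 2 or more intervals, and these regions had a median width of 1431 bp. Only PAF1-HA lists were doubled in 229 regions and only SKIP-HA lists in 331, with median widths of 936 and 967 bp. Doubling within a list did not always mean separate positions, because intervals of 1 list can overlap each other. In 325 regions, or 19.4%, no list had centres 400 bp or more apart, and in 33 regions no list had centres 50 bp or more apart. The latter are close to single sites that the list entered more than once, with a median width of 476 bp.

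The merging of PAF1-HA and SKIP-HA intervals built part of this width. Merged on their own, the PAF1-HA intervals formed 1 unbroken piece in 991 regions and the SKIP-HA intervals in 917. Both proteins gave 1 piece in 678 regions, or 40.6%, which had a median width of 910 bp. Neither did in 441 regions, or 26.4%, which had a median width of 1908 bp. In these regions each gap between pieces of one protein was bridged by intervals of the other, as the merging requires.

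Each list placed between 1 and 8 intervals in a region. PAF1-HA lists averaged 1.64, 1.63 and 1.66 intervals per extended region, or 1.64 ± 0.0120 (SD, n = 3). SKIP-HA lists averaged 1.69, 1.72 and 1.78, or 1.73 ± 0.0472 (SD, n = 3). All SKIP-HA values lay above all PAF1-HA values, by a factor of 1.05 on average, while the lists themselves differed in length by a factor of 1.31. Of the intervals in a PAF1-HA list 16.3% ± 0.554 lay in extended regions, against 13.1% ± 1.16 of those in a SKIP-HA list (SD, n = 3). By share of the list the order was thus reversed, again without overlap of the groups. The rule puts at least 1 interval of every list in each region, which by itself raises this share more in a shorter list. A single list covered 44.7% to 48.6% of the summed length of the extended regions. At least 2 intervals were found in 48.5% ± 0.714 of the regions in PAF1-HA lists and in 53.4% ± 2.74 in SKIP-HA lists (SD, n = 3), and 3 or more in 11.8% ± 0.392 and 14.4% ± 1.53.

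Every SKIP-HA list had more intervals than every PAF1-HA list in 38 extended regions, or 2.27%, and the same held for 2.80% of all 36946 merged regions. Every PAF1-HA list had more than every SKIP-HA list in 24 extended regions, or 1.44%, against 0.985% of all merged regions. Both shares come from counts that the rule used, and nothing is read from them. Across the 1671 regions the interval counts of PAF1-HA and SKIP-HA had a Spearman rho of 0.40, and counts per kb had 0.51. The points share region width, which itself correlated with the PAF1-HA count at 0.52 and with the SKIP-HA count at 0.55, and both proteins helped to set that width.

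Over all regions together, peak centres of the proteins lay at similar distances from the region middle. Such pooled values do not show whether the proteins share positions within a region. The median distance of a centre from the middle of its region was 254, 266 and 267 bp in PAF1-HA lists and 268, 269 and 273 bp in SKIP-HA lists. The groups did not overlap, but their means of 262 and 270 bp differed by 7.67 bp, against an SD of 7.30 bp among PAF1-HA lists. Relative to the distance from middle to edge the medians were 44.3% ± 1.13 and 45.4% ± 0.336 (SD, n = 3), with overlap of the groups. When every region was scaled to the same length and divided into 10 bins, bins 3 and 8, on either side of the middle, held the most centres in all lists, between 13.5% and 15.4% of a list's centres. The 2 bins beside the middle held between 9.36% and 11.4%. The outermost bins held at most 2.35%, which the rule forces in part, since a centre cannot lie nearer to an edge than the 200 bp that an interval extends to each side. Every edge is also set by an interval, which puts a centre about 200 bp inside it. How much this adds to bins 3 and 8 was not tested.

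**Figure D2:**
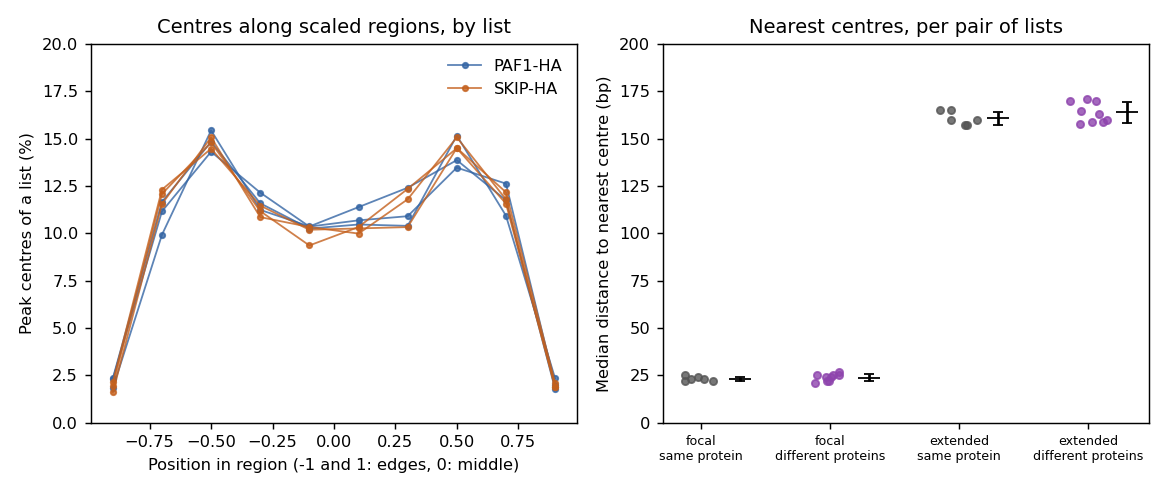
Left, share of a list's peak centres (y axis, %) along extended regions scaled to the same length (x axis, -1 and 1 are the edges and 0 the middle), 1 line per list. Right, median distance from a centre to the nearest centre of another list (y axis, bp), 1 point per pair of lists, with mean and SD beside the points. Lines of both proteins run together with maxima on either side of the middle, and pairs of the same and of different proteins overlap in height within each class, near 160 bp in extended and near 23 bp in focal regions.

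Centres of PAF1-HA and SKIP-HA lay about as close to each other as centres of replicates of the same protein. For each pair of lists, the distance from every centre to the nearest centre of the other list in the region was taken in both directions. In extended regions the median distance averaged 164 ± 5.29 bp over the 9 pairs of different proteins and 161 ± 3.61 bp over the 6 pairs of the same protein (SD over pairs). The ranges, 158 to 171 bp and 157 to 165 bp, overlapped. These pairs share lists, so no test was made. Within 100 bp of each other were 39.1% of nearest centres of different proteins and 39.7% of those of the same protein. In focal regions the corresponding medians were 23.9 ± 1.90 and 23.2 ± 1.17 bp. Most nearest centres in extended regions were thus more than 100 bp apart, also between replicates of the same protein.

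Centres no more than 100 bp from the next, over all 6 lists, were grouped into sub-sites. The 1671 regions held 7845 sub-sites, with a median of 4 per region and up to 19. Both proteins were present in 3083 sub-sites, or 39.3%, PAF1-HA alone in 2220 and SKIP-HA alone in 2542. A single interval made up 3958 sub-sites, or 50.5%, so that sub-sites of 1 protein were often sub-sites of 1 list. All 3 PAF1-HA lists without any SKIP-HA list marked 51 sub-sites, and the opposite was found for 56. With a limit of 200 bp in place of 100 bp the number of sub-sites fell to 5104, and 62.6% of them held both proteins. Neighbouring sub-sites were 247 bp apart in the median with the first limit and 396 bp with the second, distances which these limits bound from below. Consecutive intervals of a single list, which no such limit affects, had centres 480 ± 19.97 bp apart in PAF1-HA and 480 ± 7.08 bp in SKIP-HA lists (mean of list medians ± SD, n = 3).

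Base by base, 61.8% of the summed length of the extended regions was covered by intervals of both proteins, 16.99% by PAF1-HA alone and 21.2% by SKIP-HA alone. Bases covered by all 6 lists made up 8.64%, and 883 regions, or 52.8%, had none. The edges of a region came from 1 protein each in 846 regions, from SKIP-HA at both edges in 471 and from PAF1-HA at both edges in 354.

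A small set of extended regions held repeated sub-sites of all lists. With the limit of 200 bp, all 6 lists met in at least 1 sub-site in 815 regions, or 48.8%, and in more than 1 in 61 regions. With the limit of 100 bp, used in what follows, they met in at least 1 sub-site in 468 regions, or 28.0%, and in more than 1 sub-site in 44 regions. In all 44 every list had 2 or more intervals, as the definition requires, and in 26 every list had exactly 2. Their median width was 956 bp, below that of all extended regions, and the sub-sites of all lists within them were 309 to 1065 bp apart, with a median of 428 bp. These regions were ranked, by a rule chosen after their values were seen, by how far centres spread within such a sub-site, the tightest first. The spread ranged from 20 to 250 bp over the 44 regions and was 100 bp or more in 21, so the regions described next are the tight end of the set.

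The first by that rank lay on chromosome 6 at 3469690 to 3470789. Counted from the first base of the region, centres of PAF1-HA replicates 1, 2 and 3 lay at 203, 215 and 213 bp and again at 518, 519 and 520 bp. Those of SKIP-HA lay at 200, 220 and 212 bp and at 519, 520 and 518 bp. All 6 lists thus marked the same places, 309 bp apart, with a spread of at most 20 bp, and only SKIP-HA replicate 1 added a further interval, at 900 bp. On chromosome 3 at 6160792 to 6161594, each list had exactly 2 intervals and the sub-sites were 369 bp apart. Centres of PAF1-HA lay at 215, 209 and 225 bp and at 579, 585 and 603 bp, and those of SKIP-HA at 225, 200 and 211 bp and at 574, 579 and 578 bp. It was the third by rank, with centres within 29 bp. A region starting at 5074256 on chromosome 2 came before it, with sub-sites 453 bp apart and centres within 28 bp. Regions starting at 3730328 on chromosome 2 and at 1727118 on chromosome 1 came after it, with sub-sites 805 and 316 bp apart and centres within 35 and 38 bp.

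The widest regions looked different, as chains of intervals that seldom coincided between lists. Choice by width favours staggered intervals of 400 bp, while the regions above were ranked by how tightly centres coincided. The contrast follows at least in part from these choices and is a description. The widest lay on chromosome 3 at 6920932 to 6925745 and held 28 intervals, also the most of any region. PAF1-HA lists had 5, 7 and 2 intervals there and SKIP-HA lists 5, 5 and 4, so the means were equal at 4.67 and the spread among PAF1-HA replicates was the larger. Its 18 sub-sites included 5 with both proteins, 7 with PAF1-HA alone, 6 with SKIP-HA alone and 0 with all 6 lists. The next, on chromosome 15 at 695622 to 700353, spanned 4732 bp with 4, 3 and 3 PAF1-HA and 4, 3 and 3 SKIP-HA intervals, and 2 of its 16 sub-sites held both proteins. The region on chromosome 10 at 5682856 to 5687365 spanned 4510 bp with 3, 3 and 3 PAF1-HA intervals against 8, 2 and 8 in SKIP-HA lists. The third is also the region with the largest mean excess of SKIP-HA, of 3 intervals, yet SKIP-HA replicate 2 lay below all PAF1-HA lists there.

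The other 7 of the 10 widest regions were 3762 to 4271 bp wide. Chromosome 1 had a pair of them (from 2066492 and 3118431), as had chromosome 7 (from 1054778 and 5168024), and the rest began at 622802 on chromosome 2, 3429605 on chromosome 6 and 39207 on chromosome 8. Both proteins covered between 37.0% and 62.8% of the length of each of the 10. A sub-site of all 6 lists was found in 1 of them, the region on chromosome 7 at 1054778. Of the 5 regions with the most intervals 4 are among these 10, and the remaining one, on chromosome 15 at 3004378 to 3007191, packed 26 intervals into 2814 bp, with 4, 4 and 3 from PAF1-HA and 4, 6 and 5 from SKIP-HA lists. Intervals of both proteins covered 81.6% of it.

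At the other end, the 5 narrowest extended regions were single sites entered more than once. On chromosome 12 at 9309754 to 9310170, a stretch of 417 bp, all 3 PAF1-HA lists had 2 intervals and all 3 SKIP-HA lists had 1. The PAF1-HA centres lay at 200 and 201 bp, at 201 and 209 bp and at 201 and 214 bp from the first base, and those of SKIP-HA at 210, 201 and 217 bp. The same arrangement of 2, 2 and 2 against 1, 1 and 1 was seen on chromosome 3 at 5001330 to 5001752. The remaining 3, on chromosome 13 at 4916913, chromosome 4 at 3975306 and chromosome 6 at 3662651, were 419 to 438 bp wide with 7 or 8 intervals. Each of the 5 was a single sub-site of all 6 lists.

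Among regions richer in SKIP-HA, a clear case lay on chromosome 3 at 8431507 to 8433654, where each PAF1-HA list had 1 interval and SKIP-HA lists had 4, 2 and 4. PAF1-HA centres stood at 475, 484 and 684 bp from the first base, whereas SKIP-HA centres ran from 200 to 1948 bp, and SKIP-HA alone covered 71.6% of the 2148 bp. On chromosome 10 at 2357138 there were 1, 1 and 2 against 5, 3 and 3 intervals, and at 5669074 there were 1, 1 and 2 against 4, 4 and 3. The interval counts of the proteins did not overlap in these regions either. On chromosome 16 at 7099752, counts of 1, 2 and 1 against 3, 2 and 6 met at 2 intervals. The regions from 5669074 and 5682856 lie close together on chromosome 10.

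Regions richer in PAF1-HA were led by chromosome 9 at 314622 to 317190, with 6, 3 and 3 PAF1-HA intervals against 1, 2 and 1, where PAF1-HA alone covered 40.3% and SKIP-HA alone 0.272% of the length. On chromosome 17 at 3023807 the counts were 5, 3 and 5 against 1, 1 and 3, on chromosome 1 at 8090749 they were 3, 4 and 5 against 1, 3 and 1, and on chromosome 12 at 9979 they were 4, 1 and 6 against 1, 2 and 1. In the first and second of these 3 regions the counts of the proteins met at 3 intervals, and in the last they overlapped. On chromosome 6 at 6163581, with 4, 2 and 3 against 1, 1 and 1, they did not, and 0 of its 10 sub-sites held both proteins. Each of these 10 regions was taken from the extremes of 1671, so the excess is a description.

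**Figure D3:**
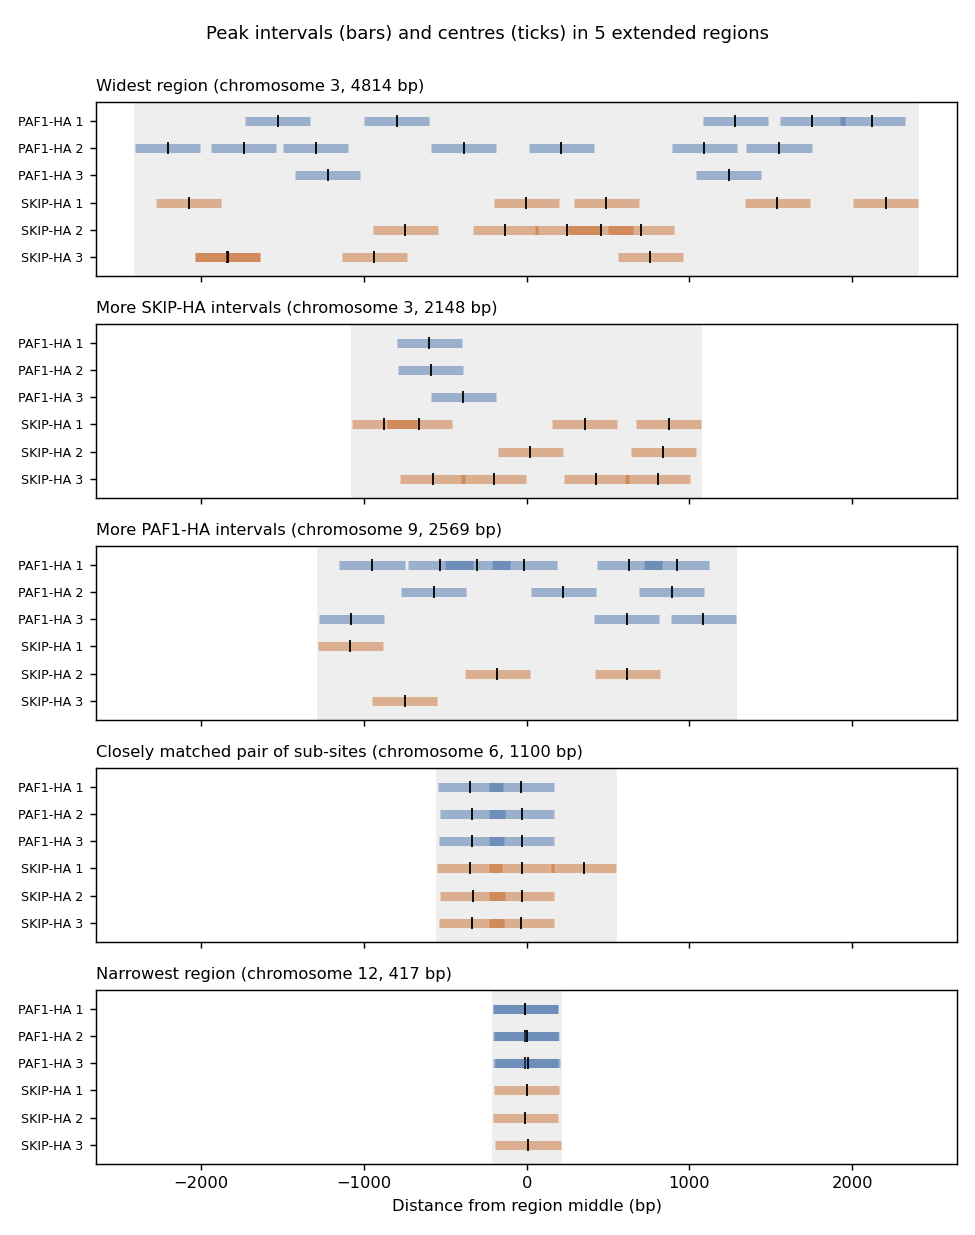
Intervals (bars, 400 bp) and their centres (ticks) in 5 extended regions, by list (rows, PAF1-HA in blue and SKIP-HA in orange) and distance from the region middle (x axis, bp), with the region shaded grey and overlapping intervals of a list darker. The widest region holds intervals scattered between lists, the next panels show 1, 1 and 1 PAF1-HA against 4, 2 and 4 SKIP-HA intervals and 6, 3 and 3 against 1, 2 and 1, and the last panels show centres of all 6 lists at shared places, with 1 further SKIP-HA interval on chromosome 6.

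Whether a library that had no part in choosing the regions had a peak in them was tested by leaving out each list in turn. Extended and focal regions were chosen from the other 5 lists, and peak centres of the left-out list were counted. A region with at least 1 such centre need not be broad in the left-out list. Extended regions chosen in this way numbered 1654 to 1860 and focal regions 1634 to 1714. A left-out PAF1-HA list had a centre in 76.3%, 76.8% and 77.8% of extended regions, and a left-out SKIP-HA list in 78.1%, 80.9% and 81.9%. For focal regions the shares were 85.1%, 83.9% and 84.5% in PAF1-HA and 86.8%, 86.8% and 85.9% in SKIP-HA lists. The share was lower in extended regions for 6 of 6 lists, with a mean difference of -6.89 percentage points, although the median width was 1154 bp for extended and 485 bp for focal regions (means over the 6 choices). A two-sided exact sign-flip permutation test over the 6 lists gave p = 0.0313, the smallest 6 lists allow, with the same value after Benjamini-Hochberg adjustment over 4 such tests. This measure was added after the density below had been seen. The 6 differences are not independent, because each list also helped to choose the regions for the others, and they pool lists of both proteins.

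The size of that difference depended on the choice of regions and of libraries. It was -10.8 and -12.01 points when intervals had to overlap by 100 or 200 bp, and -3.72 points when 2 lists had to be doubled. It was -4.26 points without PAF1-HA replicate 2 and -4.27 without SKIP-HA replicate 1, with exact permutation p = 0.0625 in both, the smallest that 5 lists allow. With replicates 1 and 2 only it was -1.43 points with an exact permutation p of 0.25, above the 0.125 that 4 lists allow.

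Several centres of the left-out list fell mainly in extended regions. At least 2 were found in 29.9% to 36.0% of extended and in 1.85% to 3.27% of focal regions, and the former are the wider. As a density, the left-out list had 0.931 ± 0.0560 centres per kb of extended and 1.61 ± 0.0268 per kb of focal region (SD, n = 6). This density divides by a width that the choice of regions makes larger for extended regions, so its difference of -0.683 per kb is given as a description. In a fixed window of 2 kb on the middle of each region the difference was -0.0346 per kb, with an exact permutation p of 0.0625, and SKIP-HA replicate 3 was higher in extended regions by 0.00706. For comparison, whole lists averaged 151 ± 5.86 intervals per Mb in PAF1-HA and 198 ± 22.3 in SKIP-HA (SD, n = 3).

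**Figure D4:**
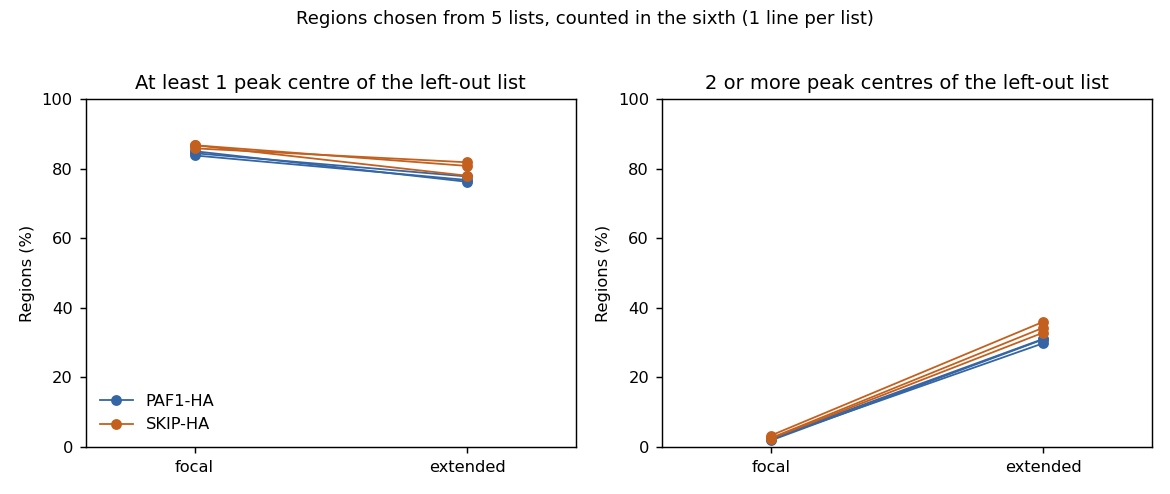
Share of regions (y axis, %) with at least 1 (left) or 2 or more (right) peak centres of the left-out list, for focal and extended regions chosen from the other 5 lists, 1 line per list. All 6 lines fall from focal to extended regions on the left, to between 76.3% and 81.9%, and rise on the right, to between 29.9% and 36.0%.

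The ratio of extended to focal density in the left-out list was 0.545, 0.564 and 0.565 for PAF1-HA and 0.568, 0.597 and 0.620 for SKIP-HA. The groups did not overlap, and the SKIP-HA mean was higher by 0.0369. An exact permutation test, two-sided, gave p = 0.1, which is the lowest value possible with 3 lists against 3. The difference in ratio shrank to 0.00313 without SKIP-HA replicate 3, with an exact permutation p of 0.8, and to 0.00479 with replicates 1 and 2 only. Leaving out PAF1-HA replicate 1 gave a difference of 0.0212, with an exact permutation p of 0.2. In the fixed window of 2 kb the ratios of the proteins overlapped, at 0.901, 0.949 and 0.935 for PAF1-HA and 0.930, 0.985 and 1.01 for SKIP-HA, with an exact permutation p of 0.3. With a required overlap of 200 bp the difference was 0.02199 and the exact permutation p was 0.3 as well.

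A second check chose regions by 1 protein alone and counted the lists of the other. PAF1-HA lists gave 1814 extended and 3412 focal regions, and SKIP-HA lists gave 2482 and 4196. SKIP-HA lists had a centre in 66.4%, 68.8% and 71.2% of extended and in 69.6%, 71.5% and 69.6% of focal PAF1-HA regions. PAF1-HA lists had a centre in 60.0%, 58.9% and 60.4% of extended and 60.1%, 59.3% and 59.9% of focal SKIP-HA regions. The share was lower in extended regions for 2 of the 3 lists of each protein, and this was not tested. Per kb, the density of centres of the other protein differed by -0.357 between extended and focal regions, again a description, since the width of the regions enters it. In a fixed window of 2 kb it differed by -0.0181 (exact permutation p = 0.0938), with SKIP-HA replicate 3 higher in extended regions by 0.0168.

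Beyond their edges, the surroundings of extended and focal regions differed little. In the 5 kb on either side, lists had 0.275 ± 0.0319 centres per kb around extended and 0.265 ± 0.0289 per kb around focal regions (SD, n = 6). The difference of 0.0103 per kb was positive in 6 of 6 lists (two-sided exact sign-flip permutation p = 0.0313, adjusted over 4 tests 0.0313). Its sign was not stable. With flanks of 2 kb it was -0.0161 per kb (p = 0.0313), and with a required overlap of 100 or 200 bp it was -0.00931 and -0.0262 per kb, each with an exact permutation p of 0.0313. Without PAF1-HA replicate 2 it was 0.00175, without PAF1-HA replicate 3 it was 0.00273 and without SKIP-HA replicate 2 it was 0.00577, and no direction is drawn from it.

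Extended regions were spread over all 17 chromosomes at 14.9 per Mb, against 12.1 per Mb for focal regions. Chromosome 4 had the highest density, with 78 regions or 18.9 per Mb, followed by chromosome 5 with 18.5 and chromosome 16 with 17.8 per Mb. Chromosomes 8 and 17 had the lowest, both with 11.98 per Mb. The order of neighbouring chromosomes was not firm, since with single lists left out the highest density fell on chromosomes 4, 5, 14 or 16 and the lowest on 8, 15 or 17. As a share of a chromosome's merged regions, the order was another. Chromosome 15, with 12.9 extended regions per Mb, had the highest share at 6.09%, followed by chromosome 4 at 5.23%. Chromosome 8 had the lowest at 3.44%, against 4.52% over all chromosomes. The ratio of extended to focal regions ranged more widely, from 0.692 on chromosome 8, with 54 extended and 78 focal regions, to 1.64 on chromosome 3, with 125 and 76. Focal regions outnumbered extended ones on chromosomes 8, 11, 15 and 17. With single lists left out, the ratio was between 0.560 and 0.708 on chromosome 8 and between 1.15 and 1.52, below its value from all lists, on chromosome 3. Chromosome 8 then had the lowest ratio in 4 of 6 choices and chromosome 3 the highest in 3 of 6. Regions are not replicates, so no test was made.

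**Figure D5:**
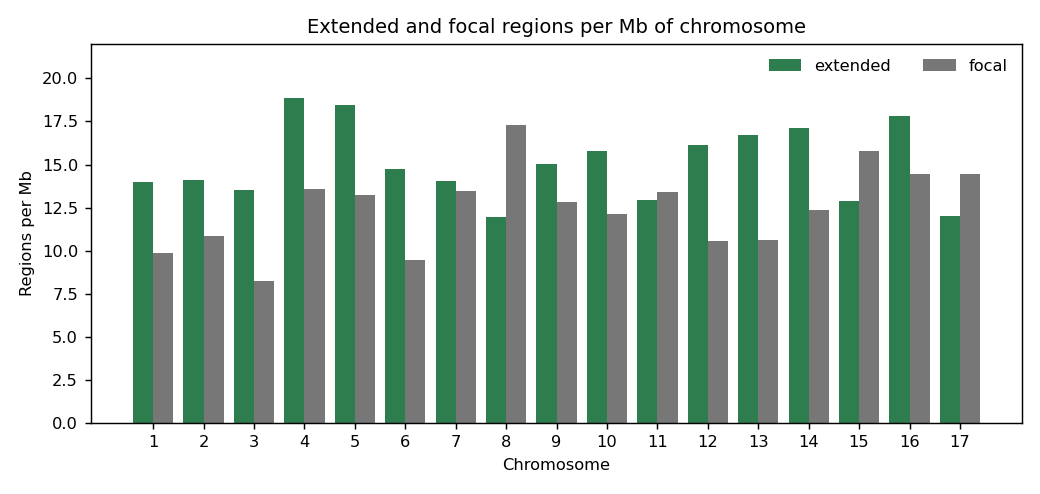
Extended (green) and focal (grey) regions per Mb of the length spanned by peaks (y axis) on each of 17 chromosomes (x axis). Chromosome 4 has the most extended regions per Mb, at 18.9, and on chromosomes 8, 11, 15 and 17 the focal bar is the taller.

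Along the chromosomes, neighbouring extended regions had a median of 37.7 kb between them, with quartiles at 12.01 and 87.2 kb. Gaps under 10 kb made up 22.2% of those between extended and 30.1% of those between focal regions. Of 1129 windows of 100 kb, 337 held 0 extended regions, 311 held 1, 231 held 2, 250 held 3 or more and 35 held 5 or more. The fullest windows, with 8 regions each, were chromosome 4 at 1800001 to 1900000 and chromosome 16 at 7900001 to 8000000. Windows with 7 lay on chromosome 5 at 800001 and chromosome 15 at 1900001. The window on chromosome 6 at 3400001 to 3500000 held 6, among them the closely repeated pair at 3469690 and the wide chain at 3429605. The closest neighbours, on chromosome 14 at 1997126 to 1998018 and 1998020 to 1998891, were separated by 1 bp. The longest stretch without an extended region ran from 3253132 to 4495850 on chromosome 15, or 1243 kb. Within 100 kb of the first base or of the last peak-covered position of a chromosome lay 73 extended regions, or 21.5 per Mb of such sequence. Focal regions there numbered 76, or 22.4 per Mb.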

How the data were processed

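The deposited files give, for each tagged library, the start and end of each peak in 3 columns without score, strand or p-value, so no value other than position was used. Bowtie2 and HOMER are named for the samples and MACS3 for 4 of them, per the submitters' processing notes. The sources used here do not give their roles, versions, thresholds, control library or the genome build. Positions were read in Python 3.11.15 with numpy 2.4.6 and pandas 2.3.3, and drawn with matplotlib 3.10.9. Intervals overlapping by at least 1 bp were merged over the 6 lists. A centre is the midpoint of an interval. Densities are centres per kb of region. The exact permutation tests flip signs over 6 lists or exchange 3 against 3. They treat left-out lists as independent, although each list helped to choose the regions for the others. Merging, choice and counting were tested on simulated lists. Alternatives were the overlap, the number of doubled lists, interval width, left-out lists, replicates 1 and 2 only, flank length and a fixed window. Regions named by rule are the 10 widest, the 5 with most intervals, the 5 narrowest, the 5 with the largest excess of each protein, and the closest and farthest neighbours. The members and lists were chosen with earlier results of these data known. Peak lists do not give read depth, and each p-value measures only the spread between these lists, which may be technical. No sequence or gene is given, since no genome of the files' build was used here.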

Additional observations from a re-analysis of the deposited data

Results flagged for a closer look

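Outside the chromosomes, 7 merged regions met the same rule of an interval in every list and 2 or more in at least 1. They drew attention because the comparisons above leave these sequences out. Wild-type libraries were not analysed here. On the plastome 5 of 64 merged regions met it, on the mitogenome 1 of 5 and on the short contigs 1 of 37, against 4.52% of merged regions on the chromosomes. The mitogenome region, at 388 to 1357, had exactly 2 intervals in each of the 6 lists. The plastome regions at 52914 to 54967 and 168473 to 169616 held 15 intervals each, with 2 or 3 from every list.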

How the results depend on the processing

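The number of extended regions was set by the overlap that joins intervals. It fell from 1671 to 955 with at least 100 bp and to 380 with at least 200 bp, where the median width was 758.5 bp in place of 1243 bp. It lay between 1654 and 1860 with single lists left out, with median widths of 1136 to 1172 bp. The flank difference turned negative with 2 kb flanks (-0.0161 per kb) and with overlaps of 100 and 200 bp (-0.00931 and -0.0262 per kb), and ranged from 0.00175 to 0.0113 with single lists left out. The cause was not tested. In the same fits the left-out density difference was -0.551 to -0.523 per kb, the difference in share -5.81 to -4.26 points, the other-protein difference -0.273 to -0.243 per kb and the SKIP-HA minus PAF1-HA difference 0.00313 to 0.0408. With 5 lists p cannot fall below 0.0625, and the left-out, share and other-protein differences stood at that value with each single list left out. The flank p was 0.6875 without PAF1-HA replicate 2, 0.3125 without PAF1-HA replicate 3 and 0.25 without SKIP-HA replicate 2. With replicates 1 and 2 only the values were 0.00769 (flank), -0.377 (left-out) and -0.199 (other protein) per kb, each at the smallest p of 4 lists, 0.125, and -1.43 points with p = 0.25, all from exact permutation tests. In a fixed 2 kb window the left-out and other-protein differences were -0.0346 and -0.0181 per kb, past neither threshold. Of 48 alternative values of these extended minus focal differences, 15 kept direction and call, 30 kept the direction without the call and 3 turned. Outside the fixed window, the left-out and other-protein densities among them divide by a width that the choice makes larger in extended regions. Their calls and p-values are therefore not read as support. The SKIP-HA minus PAF1-HA difference has no call to keep, since 3 lists against 3 allow no p below 0.1.

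The replicate block, an exact sign-flip test over same-numbered lists, left the SKIP-HA minus PAF1-HA difference at 0.0369 with an exact permutation p of 0.25, the smallest that 3 pairs allow. Deviations of same-numbered lists from their group means correlated at -0.00952, -0.00839 and 0.00437 over 36946 regions, so the numbers were not taken to pair the lists, although replicate 3 of both groups differs from the others in its label fields. Not every list correlated best with the list of its own number. Unknown read depth limits every count, as the lists differ in length.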

Other observations

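Just outside the rule stood 2026 merged regions with intervals in 5 of the 6 lists and 2 or more in at least 1, more than the 1671 that met it, with a median width of 1184 bp. The list that lacked an interval was a PAF1-HA list in 395, 383 and 366 of them, for replicates 1, 2 and 3, and a SKIP-HA list in 348, 272 and 262. Lists with fewer intervals were thus missing more often, in the order of list length. Their longest region spanned 3657 bp and lacked PAF1-HA replicate 1.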
